A study of Mus musculus with 10 samples.

Results

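The cells described here are Pi16-expressing cells of the mouse supraspinatus enthesis, the zone where this shoulder tendon inserts into bone. They were chosen by transcript counts in 3 droplet libraries of whole enthesis: a cell needed 500 or more detected genes, mitochondrial counts of 10% or less, and 2 or more unique molecular identifiers (UMIs, each standing for 1 captured transcript) of Pi16. It also had to hold 0 UMIs of Ptprc (a leukocyte gene), Cdh5 (an endothelial gene) and Tnmd (a tendon gene). The rule found 276 cells among the 13479 that passed the cell filter, with 58 at postnatal day 11 (P11), 35 at P18 and 183 at P56. Each of these libraries came from wild-type C57BL/6 mice whose entheses were dissected and pooled, the number of animals not being given, and live cells without Cd45 staining were sorted for the droplets. There was 1 library per age, so no difference between ages could be tested. A separate set of 7 plates held single sorted cells from Gli1CreERT;Ai14 mice given tamoxifen at P5 and P7. In these mice a drug-inducible Cre expressed from the Gli1 gene switches on a red reporter in Gli1-expressing cells and in their descendants, and the plates were collected at 7 ages from P7 to P42. Their labels name a sort on DAPI and red fluorescence.

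Pi16 encodes peptidase inhibitor 16, a secreted or membrane-anchored glycoprotein. Fibroblasts with Pi16, Dpp4 (dipeptidyl peptidase 4, CD26), Cd34 (a sialomucin) and Ly6a (Sca-1) occur in many mouse organs, where they lie in the adventitia of vessels and in loose connective tissue sheets, and they are often called universal fibroblasts. They are known for matrix of microfibrils and elastic fibres, and have been described as a reservoir from which more specialised fibroblasts arise. Tendon cells proper are instead marked by Scx and Tnmd, and cells of the cartilage side of an enthesis by Acan and Col2a1. In mm10, Pi16 lies at chr17:29317680-29330593 on the plus strand and is protein-coding.

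The label failed for 15 of the 276 cells. At P18, 15 of the 35 cells held transcripts of at least 3 of the leukocyte genes Tyrobp, Fcer1g, Laptm5 and Coro1a and are called immune-type here. In those 15 cells the 10 genes of an immune list, which includes genes of that definition, made up between 3.83% and 40.1% of all UMIs. S100a8, a granulocyte calcium-binding protein, reached 126834 CPM (a gene's UMIs per 1000000 UMIs of the summed cells), and Camp, a granule antimicrobial peptide, reached 41490 CPM. None of the 15 had a UMI of Dpp4, Cd34, Ly6a, Dcn or Pdgfra, and their Pi16 count was 2 or 3. The other 20 cells at P18 held Dcn, the collagen-binding proteoglycan of fibroblasts, at 10542 CPM and S100a8 at 50.7 CPM. Although the sort removed cells stained for Cd45, the protein product of Ptprc, 2536 of the 5396 filtered cells at P18 had a Ptprc UMI, against 436 of 2952 at P11. At P56 there were 0 of 5131, a count that allows up to 0.0585%. The 15 cells carried 54.4% of the UMIs of the P18 sum, so each result below is given with all 276 cells or with the 261 others, and which is stated.

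**Figure D1:**
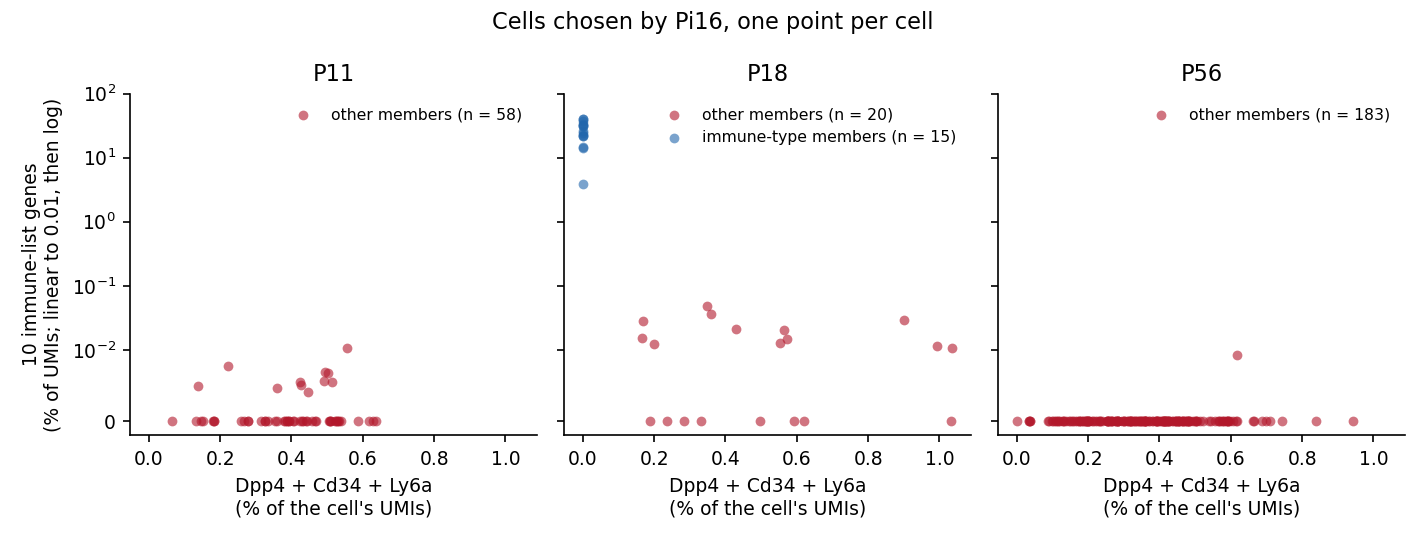
Share of each cell's UMIs in the 3 markers Dpp4, Cd34 and Ly6a (x axis, %) against its share in the 10 immune-list genes (y axis, %, linear to 0.01 and logarithmic above), for the 276 cells chosen by Pi16 at P11, P18 and P56. The 15 immune-type cells at P18 lie at 0 on the x axis and between 3.83% and 40.1% on the y axis, and the other 261 cells lie at or below 0.0479% on the y axis. The immune list includes genes that defined the immune-type cells, so the y axis is not independent of that split.

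Of the 261 other cells, 260 held at least 1 UMI of Dpp4, Cd34 or Ly6a. All 3 markers were seen together in 46 of 58 cells at P11, 12 of 20 at P18 and 83 of 183 at P56. Cells without Pi16 often held them too. Of the comparison cells defined below, which also include cells with cartilage genes, 89 of 528 at P11, 148 of 254 at P18 and 31 of 1201 at P56 had none of the 3. All 3 were held by 42.6%, 15.4% and 32.4% of them, against 79.3%, 60.0% and 45.4% of Pi16 cells. The Pi16 cell that had none was at P56, as was 1 other cell with no UMI of Dcn or Pdgfra. P56 was the library where the median depth was lowest, with 6550 UMIs per cell against 15523 at P11 and 9493 at P18. Pi16 itself, which chose the cells, ranged from 2 to 62 UMIs per cell at P11 with a median of 6.5. Among the 20 cells at P18 it ranged from 2 to 39 with a median of 5, and at P56 from 2 to 39 with a median of 4. Just inside the threshold, cells with exactly 2 Pi16 UMIs held Cd34 at 1196 CPM at P11, 848 at P18 and 1030 at P56. Just outside it, cells with exactly 1 Pi16 UMI held Cd34 at 1134, 1008 and 683 CPM. Mfap5, a microfibril glycoprotein, stood at 3452, 3878 and 2252 CPM just inside and at 2995, 3723 and 1604 CPM just outside. Across the threshold Mfap5 was thus higher inside at all 3 ages, and Cd34 at P11 and P56 but not at P18. These values carry no test. Libraries shared few cell barcodes (4 between P11 and P18, 6 between P11 and P56, and 9 between P18 and P56), none of them in a cell of the set.

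Pi16 cells made up 1.96% of filtered cells at P11 (58 of 2952, exact Clopper-Pearson 95% interval 1.50% to 2.53%). At P18 the share was 0.649% (35 of 5396, 0.452% to 0.901%), or 0.371% (0.227% to 0.572%) without the immune-type cells. At P56 it was 3.57% (183 of 5131, 3.08% to 4.11%). The P56 share was thus the highest and the P18 share the lowest, and the 3 intervals do not overlap, although they cover counting error only and not the spread between animals. As a share of cells holding Pdgfra or Pi16, the values without immune-type cells were closer. P11 had 9.21% (95% interval 7.06% to 11.7%), P18 had 7.07% (4.37% to 10.7%) and P56 had 11.9% (10.3% to 13.6%). All of these intervals overlap, so the order of the ages was not resolved for this share. With every cell thinned to 2000 UMIs before the rule the shares were 0.900%, 0.296% and 1.71%. Under a stricter cell filter (1000 genes, 5% mitochondrial counts) the P11 share was 4.52% and the P56 share 4.43%, so that the order of those ages turned. The amount of leukocyte material in each library moves with these shares and its part in them was not tested.

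To see what else separates Pi16 cells from Pi16-free cells with Pdgfra, their summed counts were set against comparison cells of the same library. These passed the same filters, held 0 UMIs of Pi16, Ptprc, Cdh5 and Tnmd and at least 1 of Pdgfra, the platelet-derived growth factor receptor of fibroblasts. There were 530 at P11, 255 at P18 and 1201 at P56, of which 528, 254 and 1201 were left without immune-type cells. The counts were tested with edgeR's quasi-likelihood test with the library as a term. The 3 pairs of sums left 2 residual degrees of freedom per gene. The test also borrows variance estimates across all genes, so small p-values rest on that sharing as well. The comparison cells were mixed: the 12 genes of a chondrocyte and mineralisation list summed to 10185, 30868 and 531 CPM at P11, P18 and P56 in them, against 55.3, 45.6 and 59.2 CPM in the 261 Pi16 cells. A second comparison therefore kept only comparison cells that also held Ly6a, with 418, 100 and 1151 cells.

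The 3 markers other than Pi16 were higher in Pi16 cells than in comparison cells of each library, but none passed the test among all comparison cells. Cd34 in the 261 cells stood at 1412 CPM (exact Poisson 95% interval 1337 to 1490) at P11. It was 1633 CPM (1459 to 1821) in the P18 cells, and 960 CPM (911 to 1011) in those of P56. In the comparison cells it stood at 737, 327 and 585 CPM. The fold was largest at P18, at 4.99, against 1.92 at P11 and 1.64 at P56. P18 was also where comparison cells held most of the chondrocyte and mineralisation genes. Dpp4 followed the same order, with 181, 193 and 108 CPM against 111, 40.2 and 75.8 CPM. Ly6a was abundant on both sides, at 2419, 3575 and 2471 CPM in Pi16 cells and 1537, 1010 and 2190 CPM in comparison cells. The log2 differences were 1.19 ± 0.28 (SE) for Cd34, 0.92 ± 0.26 for Dpp4 and 0.76 ± 0.29 for Ly6a, with edgeR adjusted p of 0.0802, 0.147 and 0.329. With all 276 cells the same differences were 0.98, 0.78 and 0.54, with edgeR adjusted p of 0.247, 0.393 and 0.561. Against comparison cells holding Ly6a, Cd34 passed the test (log2 difference 0.71, edgeR adjusted p = 0.00181) and Dpp4 did not (0.50, edgeR adjusted p = 0.0503). With each cell thinned to 2000 UMIs, Dpp4 was seen in 18 of 58, 6 of 20 and 43 of 180 Pi16 cells and in 84 of 525, 15 of 251 and 142 of 1192 comparison cells, the cells under that depth being left out. Unthinned, the shares were 82.8%, 60.0% and 45.4% of Pi16 cells and 42.8%, 15.7% and 33.5% of comparison cells. Cells with at least 2 UMIs of Cdh5 showed Dpp4 in 0 of 78 at P11 at that depth and in 0.882% at P56.

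**Figure D2:**
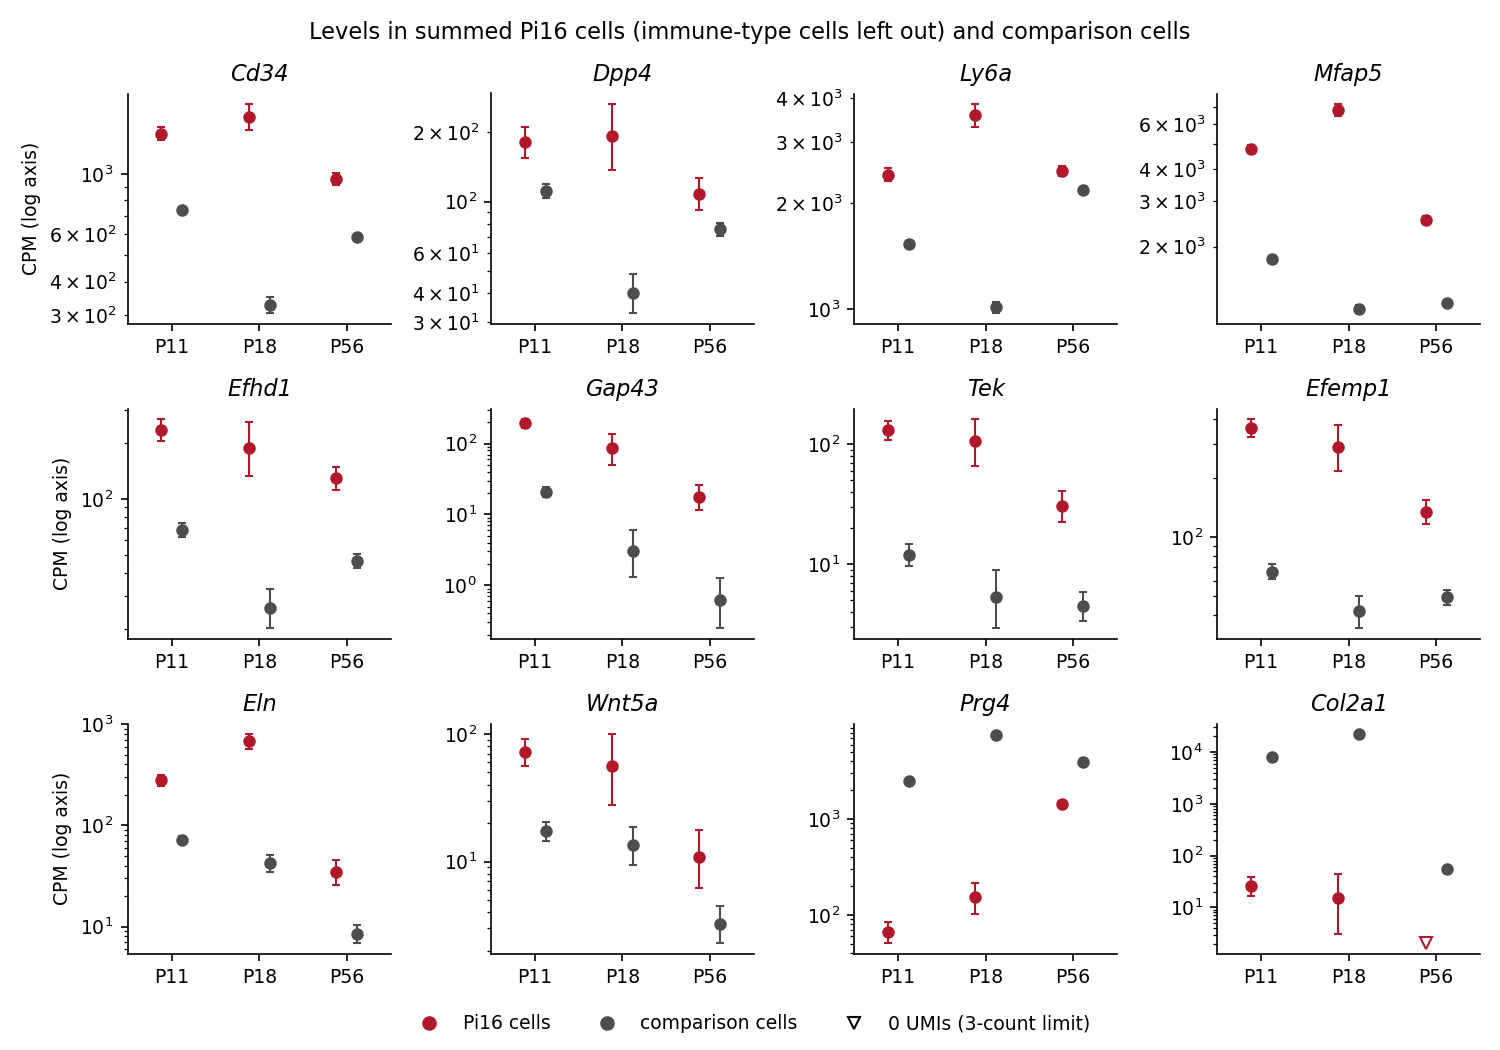
Level of 12 genes in CPM (y axes, logarithmic, each panel with its own range) in the summed 261 Pi16 cells (red) and the summed comparison cells without immune-type cells (grey) at P11, P18 and P56, with exact Poisson 95% intervals; the open triangle marks a sum with 0 UMIs, drawn at the limit of 3 counts. Cd34, Dpp4, Ly6a, Mfap5, Efhd1, Gap43, Tek, Efemp1, Eln and Wnt5a were higher in Pi16 cells at each age, and Prg4 and Col2a1 were lower.

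With all 276 cells, 5 of 10263 genes passed the edgeR test at an adjusted p of 0.05 (0.0487%), and 809 had an unadjusted p under 0.05. Tek was higher in Pi16 cells and Acan, Col2a1, 3110079O15Rik (also named Snorc, a chondrocyte proteoglycan) and Mmp3, a matrix protease, were lower. Without the immune-type cells 190 of 10209 genes passed (1.86%), 96 of them higher and 94 lower in Pi16 cells, and the 5 were among them. Against comparison cells with Ly6a, again without immune-type cells, 410 of 9228 passed (4.44%), 210 higher and 200 lower. The last 2 fits were added after the immune-type cells had been seen. Genes below are described from the 261 cells, with the fit named where it is another. Leaving out the P11, P18 or P56 library gave 76, 286 or 633 genes in place of 190.

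Among the 20 genes of a universal-fibroblast list, those that passed the test were all higher in Pi16 cells. This and the other gene lists were chosen with earlier results of these data known, so their direction is no independent evidence of cell type. In the 261 cells 6 of the 19 tested members passed, all higher (Gap43, Efhd1, Mfap5, Opcml, Cd248 and Limch1), and the list's median log2 difference was 0.94 beside −0.01 over all genes tested. With all 276 cells none of the 19 passed and the median was 0.79. Against comparison cells with Ly6a 11 of 19 passed, all higher, with a median of 0.81. Mfap5 was the most abundant of the 6, at 4810, 6805 and 2540 CPM at P11, P18 and P56 in Pi16 cells and 1788, 1142 and 1204 CPM in comparison cells (log2 difference 1.57 ± 0.29, edgeR adjusted p = 0.0287). At 2000 UMIs per cell Mfap5 was seen in 100%, 100% and 96.1% of Pi16 cells, in 67.0%, 31.9% and 67.4% of comparison cells, and in 3.85% of Cdh5 cells at P11 and 12.9% at P56. Efhd1, a mitochondrial calcium-binding protein, stood at 235, 188 and 129 CPM against 68.0, 26.0 and 46.3 CPM (1.82 ± 0.22, edgeR adjusted p = 0.00494). The 5 genes added in the fit against Ly6a-holding cells were Sema3c (a secreted semaphorin), Anxa3 (an annexin), Dact2, Emilin2 and Smpd3, and the difference between the fits was not tested. Members that passed in none of the fits included Cd55, Clec3b, Ly6c1, Ackr3 and Igfbp6, at log2 differences of 0.83, 0.72, 0.66, 0.58 and 0.41 in the 261 cells.

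Tek and Gap43 were among the 12 genes with the largest positive differences. Tek encodes the angiopoietin receptor Tie2, best known from endothelium, and lies at chr4:94739289-94874976 on the plus strand of mm10. In Pi16 cells of P11, P18 and P56 it stood at 131 CPM (109 to 156), 106 CPM (65.9 to 163) and 30.6 CPM (22.4 to 41.0), against 11.97, 5.36 and 4.49 CPM in comparison cells. Pi16 cells were above comparison cells in 3 of 3 libraries, with intervals that do not meet, and the ratio was 10.9, 19.9 and 6.83. Its log2 difference was 3.29 ± 0.25 (edgeR adjusted p = 0.000618), 3.15 with all 276 cells (edgeR adjusted p = 0.049) and 2.96 against Ly6a-holding cells (edgeR adjusted p = 9.36e-07). The 7 genes of an endothelial list (Pecam1, Kdr, Emcn, Egfl7, Cldn5, Tie1 and Esam) summed to 2.1, 10.1 and 29.96 CPM in these Pi16 cells at P11, P18 and P56, and to 3.5, 4.6 and 10.0 CPM in comparison cells. The endothelial list was thus higher in Pi16 cells at P18 and P56 and lower at P11. In Pi16 cells 1 of the 7 genes was seen at P11 and at P18, with 2 UMIs each time, and all 7 at P56, with 44 UMIs. Tek in Cdh5 cells was 121 CPM at P11 and 100.1 at P56, beside 131 and 30.6 CPM in Pi16 cells. The rule left out cells with Cdh5, which also bears on the endothelial list. The part of endothelial transcripts in the Tek difference was not tested.

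Gap43, a growth-cone protein of neurons, lies at chr16:42248442-42340651 on the minus strand. It stood at 193, 86.2 and 17.7 CPM in Pi16 cells and at 20.8, 3.06 and 0.616 CPM in comparison cells (log2 difference 3.66 ± 0.31, edgeR adjusted p = 0.000834). Opcml, a membrane adhesion protein of the nervous system, passed at 2.09 ± 0.40, Stmn4, a stathmin that binds tubulin, at 2.30 ± 0.28, and Lgi2, a secreted leucine-rich protein, at 2.495 ± 0.356. The 5 Schwann-cell genes summed to 5.3, 5.1 and 12.9 CPM in Pi16 cells and 5.9, 4.2 and 10.6 CPM in comparison cells. In Pi16 cells 1 of the 5 genes was seen at each age. The part of nerve transcripts in these differences was not tested. D630033O11Rik, a long intergenic noncoding RNA gene at chr9:43243599-43280076 on the plus strand, had the largest fitted difference of the 12, 3.68 ± 0.29 (edgeR adjusted p = 0.000618). It stood at 114, 40.6 and 37.5 CPM against 6.68, 1.15 and 4.40 CPM, the P18 values resting on 8 UMIs in Pi16 cells and 3 in comparison cells. Pcsk5, a proprotein convertase, was higher by 2.33 ± 0.24, and Lmo2, a transcription cofactor of blood and endothelium, by 2.05 ± 0.32. Gm11747, a predicted gene, was also among the 12, at 2.05 ± 0.29.

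Genes of microfibrils and elastic fibres followed the same pattern. Of 14 tested members 5 passed, all higher: Efemp1 (fibulin-3), Eln (elastin), Loxl1 (a crosslinking oxidase of elastin), Mfap4 and Fbln5. The list's median log2 difference was 1.07, beside −0.01 over all genes, and 0.90 with all 276 cells, where none passed. Against Ly6a-holding cells 7 of 14 passed, the added ones being Fbln2 and Fbn1, the gene of fibrillin-1. Eln stood at 278, 674 and 34.7 CPM at P11, P18 and P56 in Pi16 cells, against 71.7, 42.1 and 8.44 CPM in comparison cells (2.53 ± 0.33, edgeR adjusted p = 0.00877). Efemp1 stood at 362, 289 and 135 CPM against 66.6, 41.7 and 49.3 CPM (2.08 ± 0.24, edgeR adjusted p = 0.00415). For both genes Pi16 cells were above comparison cells in 3 of 3 libraries. Ltbp2, a latent TGF-beta binding protein, and Emilin1 had negative differences of −0.995 and −0.56 that did not pass.

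None of 18 collagen and collagen-processing genes passed in the 261 cells, with 2 higher and 6 lower at an unadjusted p under 0.05, their median being −0.26, with Col1a1 at −0.70 and Col3a1 at 0.16. Against Ly6a-holding cells Col14a1 (0.48) and Bmp1, the procollagen C-proteinase (0.54), were higher and Col6a3 (−0.63) was lower. Among 16 proteoglycan and other matrix genes Has1, a hyaluronan synthase, was higher, at 485, 350 and 1244 CPM against 172, 81.5 and 799 CPM (1.26 ± 0.26, edgeR adjusted p = 0.0466). Fmod, the fibromodulin of tendon, and Tnc, tenascin C, were lower. Tnc stood at 4.26, 0 and 6.81 CPM in Pi16 cells, the P18 sum allowing up to 15.2 CPM, and at 100.3, 22.2 and 22.9 CPM in comparison cells.

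Cartilage genes were lowest relative to comparison cells. Of 10 tested genes of the chondrocyte and mineralisation list 8 passed, all lower, with a median log2 difference of −6.06, the same when Hapln1, which had 0 UMIs in all Pi16 cells, was set to its bound. Col2a1, the collagen of cartilage, stood at 25.5, 15.2 and 0 CPM in Pi16 cells and at 8018, 22170 and 55.9 CPM in comparison cells (edgeR adjusted p = 0.000105). Hapln1, a proteoglycan link protein, was at least 43.0-fold lower at P11 and at least 38.9-fold lower at P18, taking 3 counts per library as the limit. Bglap (osteocalcin, whose reads may be split with the near-identical Bglap2) also had 0 UMIs in Pi16 cells and 99.1, 1554 and 10.5 CPM in comparison cells. The 12 genes with the largest negative differences were Bglap, Bglap2, Hapln1, Scrg1, Fzd9, 3110079O15Rik, Col2a1, Acan, Col9a2, Ibsp, Spp1 and Col11a2. Acan (1, 1 and 0 UMIs in Pi16 cells), Ibsp (3, 0 and 0) and Hapln1, among others, reached the count filter only through comparison sums. Such genes entered the test because comparison cells held them, so the counts of lower genes and the medians are partly set by the filter. The same holds for Kera and Wif1 below. Against Ly6a-holding cells, in which Col2a1 was lower at 576, 743 and 0.990 CPM, all 7 of the list's genes that could be tested passed as lower, with a median of −3.83.

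Tendon and lining genes were lower too, including against Ly6a-holding cells. Of 9 tendon genes tested 5 passed, all lower (Cilp2, Comp, Kera, Scx and Thbs4), with a median of −1.48. The same 5 passed among 7 tested against Ly6a-holding cells, with a median of −1.93. Scx, the transcription factor of tendon progenitors, stood at 1.06, 0 and 12.3 CPM in Pi16 cells, where the 0 allows up to 15.2 CPM, and at 9.83, 10.3 and 39.7 CPM in comparison cells (−1.98 ± 0.37, edgeR adjusted p = 0.0337). All cells on both sides lacked Tnmd by the rule, so cells with that tendon gene are outside this contrast. Of 5 lining-fibroblast genes 3 passed, all lower: Prg4 (lubricin), Hbegf (an EGF-family ligand) and Htra1 (a secreted protease). Prg4 stood at 66.0, 152 and 1452 CPM in Pi16 cells and at 2499, 7633 and 3909 CPM in comparison cells (−4.23 ± 0.83, edgeR adjusted p = 0.0389). Sema3a, a secreted repulsive guidance ligand, was lower at −2.34 ± 0.28 (edgeR adjusted p = 0.00494), in 3 of 3 libraries.

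**Figure D3:**
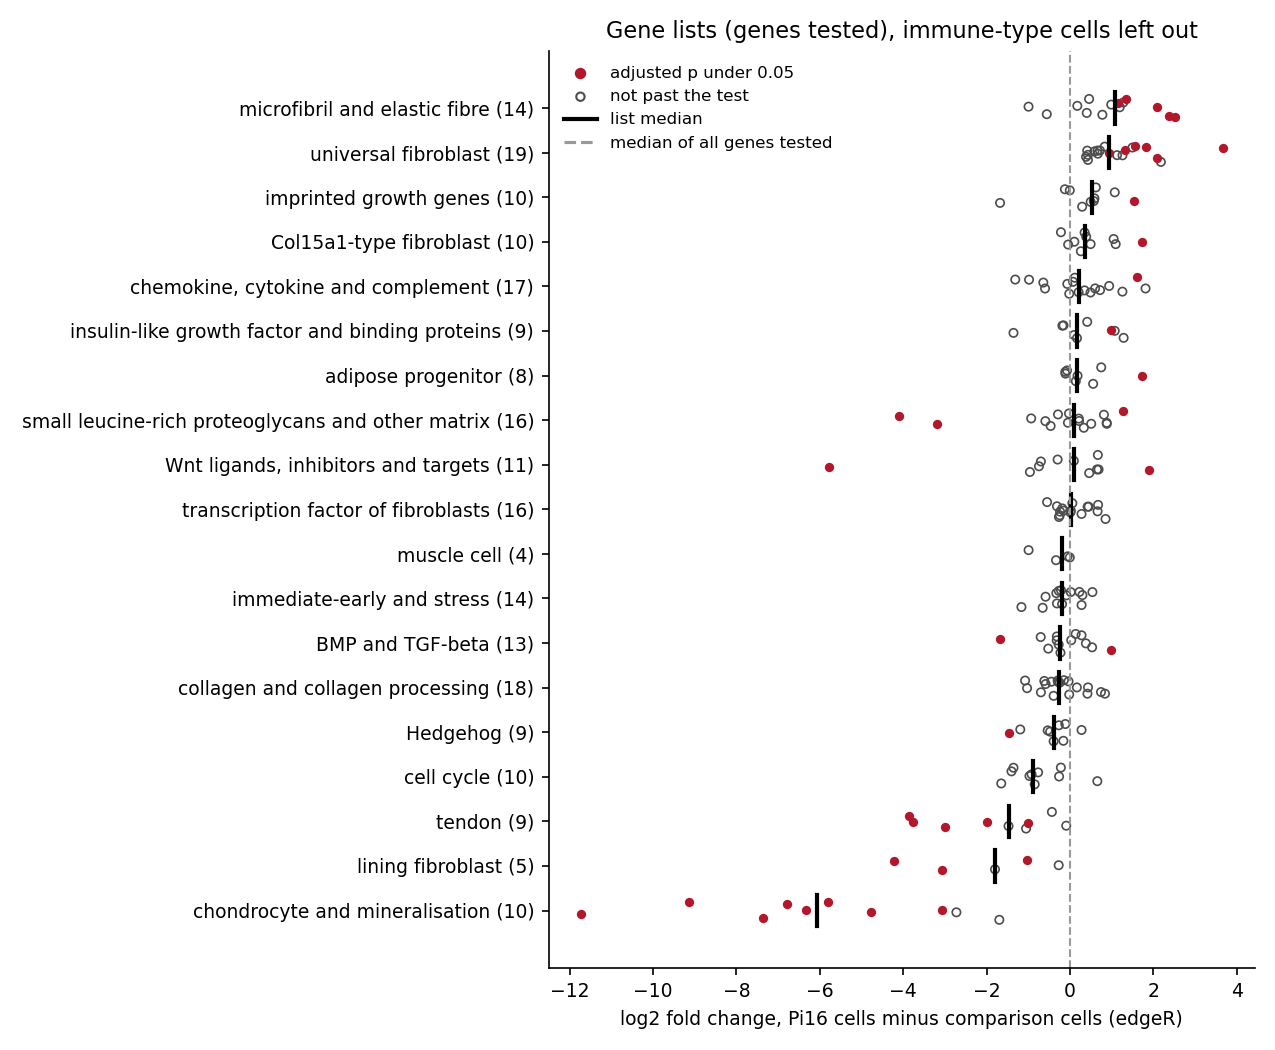
Log2 fold change of each tested gene (x axis, edgeR, 261 Pi16 cells minus comparison cells) for 19 gene lists (y axis, genes tested in brackets); filled points passed at an adjusted p of 0.05, black bars are list medians and the dashed line is the median of all genes. The medians run from −6.06 for the chondrocyte and mineralisation list to 1.07 for the microfibril and elastic fibre list.

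Of the signalling lists, few genes passed in the 261 cells. Of 11 Wnt genes tested, Wnt5a, a ligand that mostly acts without beta-catenin, was higher at 72.4, 55.8 and 10.9 CPM against 17.3, 13.4 and 3.26 CPM (1.89 ± 0.23, edgeR adjusted p = 0.00589). Wif1, a secreted Wnt inhibitor, was lower, with 0, 0 and 5.45 CPM against 229, 1080 and 28.8 CPM, the zeros allowing up to 3.19 CPM at P11 and 15.2 CPM at P18. Of 13 BMP and TGF-beta genes, the receptor Tgfbr2 was higher at 0.98 ± 0.18 and the ligand Gdf10 lower at −1.67 ± 0.29. Against Ly6a-holding cells Gdf10 did not pass (−0.74, edgeR adjusted p = 0.0963), while Tgfbr2 did (0.82, edgeR adjusted p = 0.00107). Of 9 Hedgehog genes, Hhip, a Hedgehog-binding inhibitor and target, was lower at −1.46 ± 0.23 (edgeR adjusted p = 0.0187), and the transcription factor Gli1 had a difference of 0.28 that did not pass. Against Ly6a-holding cells 3 of 7 Hedgehog genes passed, all lower: Hhip at −1.33 and the Hedgehog co-receptors Boc at −0.90 and Gas1 at −0.73. Hhip was lower there in 2 of 3 libraries, and its P18 value in Pi16 cells rests on 2 UMIs. Igfbp4, a binding protein of insulin-like growth factors, was the 1 of 9 genes of its list that passed, at 0.99 ± 0.20. In the chemokine, cytokine and complement list 1 of 17 passed, the complement component C3, at 55.3, 96.3 and 366 CPM against 14.1, 13.0 and 183 CPM (1.61 ± 0.28, edgeR adjusted p = 0.0262). Ccl11, the eosinophil chemokine eotaxin, stood at 96.8, 487 and 499 CPM against 49.9, 39.4 and 185 CPM and missed the test (edgeR adjusted p = 0.0551), but passed against Ly6a-holding cells (1.49, edgeR adjusted p = 7.91e-05). That fit also called Igfbp5 higher (0.93) and the Wnt-pathway gene Dkk3 (−1.09), Igfbp7 (−0.90) and the cytokine gene Il6 (−0.87) lower.

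Among the growth-related imprinted genes, H19, a noncoding RNA expressed from the maternal copy, passed at 1.53 ± 0.25 (edgeR adjusted p = 0.02), and 4 of 9 passed against Ly6a-holding cells (H19, Cdkn1c, Mest and Plagl1, all higher). Lpl, lipoprotein lipase, was the 1 gene that passed in both the adipose-progenitor list (8 tested) and the list of Col15a1-type fibroblasts (10 tested), at 526, 583 and 140.3 CPM against 184, 68.5 and 67.0 CPM. None of 16 fibroblast transcription factors passed in the 261 cells, the nearest being Ebf2 at 0.85 (edgeR adjusted p = 0.0904), and Twist1 was lower against Ly6a-holding cells (−0.59, edgeR adjusted p = 0.0259). None of 14 immediate-early and stress genes or 10 cell-cycle genes passed either, with medians of −0.20 and −0.88, the second being 0.69 with all 276 cells. Of the markers of other cell types, the immune list summed to 12.8, 127 and 0.7 CPM in the 261 cells and the mural list to 24.5, 15.2 and 136 CPM. The immune sum is partly set by the removal of immune-type cells, which used genes of that list. Muscle genes summed to 96.8, 5.1 and 73.5 CPM, and erythroid genes to 21.3, 60.9 and 2.7 CPM.

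Between P11 and P56, imprinted growth genes and fibrillar collagen genes were among those that fell in Pi16 cells, and complement and chemokine genes among those that rose. Because there was 1 library per age, a gene was counted as changed only if its CPM differed at least 4-fold between P11 and P56, lay between or equal to them at P18 and rested on at least 100 UMIs in all. With all 276 cells 81 of 3804 genes met this rule (2.13%), 35 rising and 46 falling. Without the immune-type cells 83 of 3569 did (2.33%), 43 rising and 40 falling, and 68 genes were in both sets. Scaling by TMM (a trimmed mean of gene ratios) in place of library totals turned the split to 51 rising and 38 falling with all cells, and to 50 and 34 without the immune-type cells. It moved the median log2 difference over all genes from −0.08 to 0.07 with all cells. In the comparison cells 143 of 9847 genes met the rule (1.45%). Of the 83 genes, 28 also met the rule in the same direction there, which is 33.7% of the 83 and 19.6% of the 143. Each of the 83 moved in the same direction in comparison cells from P11 to P56. Some of those not counted there changed at least 4-fold but had a P18 value outside P11 and P56. Among them were Dlk1 (log2 change −6.45), Itm2a (−4.20), Col1a1 (−2.13) and C3 (3.70). Values with age below are from the 261 cells, and they compare libraries, not ages tested over animals.

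H19 had the largest fall of all genes counted, from 1604 over 1029 to 0.681 CPM, the last value resting on 1 UMI (interval 0.0172 to 3.79). Of 9 imprinted genes tested 7 fell: H19, Dlk1, Mest, Meg3, Plagl1, Peg3 and Cdkn1c. The list's median log2 change was −3.25 beside −0.07 over all genes tested, and −3.29 in comparison cells. Dlk1, a Notch-type membrane ligand that restrains fat cell formation, was seen in 28 of 58 cells at P11 and in 0 of 183 at P56. Meg3, a noncoding RNA, went from 3491 over 1146 to 330 CPM. Cthrc1, a secreted protein of collagen-producing cells, went from 788 over 325 to 2.72 CPM, from 55 of 58 cells to 4 of 183. Postn, the matrix protein periostin, went from 1912 over 598 to 59.9 CPM, and Ptn, the growth factor pleiotrophin, from 852 over 314 to 22.5 CPM. Itm2a, a membrane protein of developing skeletal tissue, went from 3751 over 1998 to 172 CPM. Mest, Nrk and Nrep were also among the 10 largest falls, with log2 changes of −5.49, −4.65 and −4.23. Several of the 10 largest falls ended below the level in Cdh5 cells at P56: Postn stood there at 298 CPM, Ptn at 127, Mest at 27.7, Cthrc1 at 23.3, Nrep at 15.7, Dlk1 at 13.5 and H19 at 1.09 CPM. At P11 Mest was at 377 CPM in Cdh5 cells, above its 336 CPM in Pi16 cells. The part of free RNA in these values was not tested.

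Fibrillar collagens fell in the same cells. Of 17 collagen and collagen-processing genes tested 4 fell and 0 rose: Col3a1 from 15679 over 14335 to 2045 CPM, Col1a2 from 6206 over 5319 to 1284, Col1a1 from 5531 over 5208 to 1178, and Col5a1 from 1199 over 953 to 258. The list's median was −1.28, and −1.11 in comparison cells. Cdh5 cells held Col1a1 at 5809 CPM at P11 and 1818 at P56, no less than Pi16 cells. Their Col3a1 stood at 1437 and 528 CPM, under the level in Pi16 cells. At P18, with 10 Cdh5 cells, Col1a1 had 1 UMI in them (14.6 CPM) and Col1a2 and Col3a1 had 0. The part of free RNA in the collagen levels was not tested. Mfap2 and Ltbp1 of the microfibril list, Lum (lumican) and Igf1 (insulin-like growth factor 1) fell as well, Igf1 from 640 over 396 to 59.9 CPM. Gap43 (192.6, 86.2 and 17.7 CPM) and Tek (130.9, 106 and 30.6 CPM), which separated Pi16 cells from comparison cells, both fell with age. The markers changed less: Dpp4 and Cd34 had log2 changes of −0.74 and −0.56 and Ly6a of 0.03, all under the rule. Xist, the RNA of the inactive X chromosome, was in 45 of 58 cells at P11, 8 of 20 at P18 and 1 of 183 at P56, and the Y-linked Ddx3y rose from 10.6 over 30.4 to 96.0 CPM. Sex-linked transcripts thus differed between the libraries, and this cannot be told apart from age. The matrix headers name version 3.1.0 of the counting software for P11 and P18 and 3.0.2 for P56, another difference that goes with age.

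**Figure D4:**
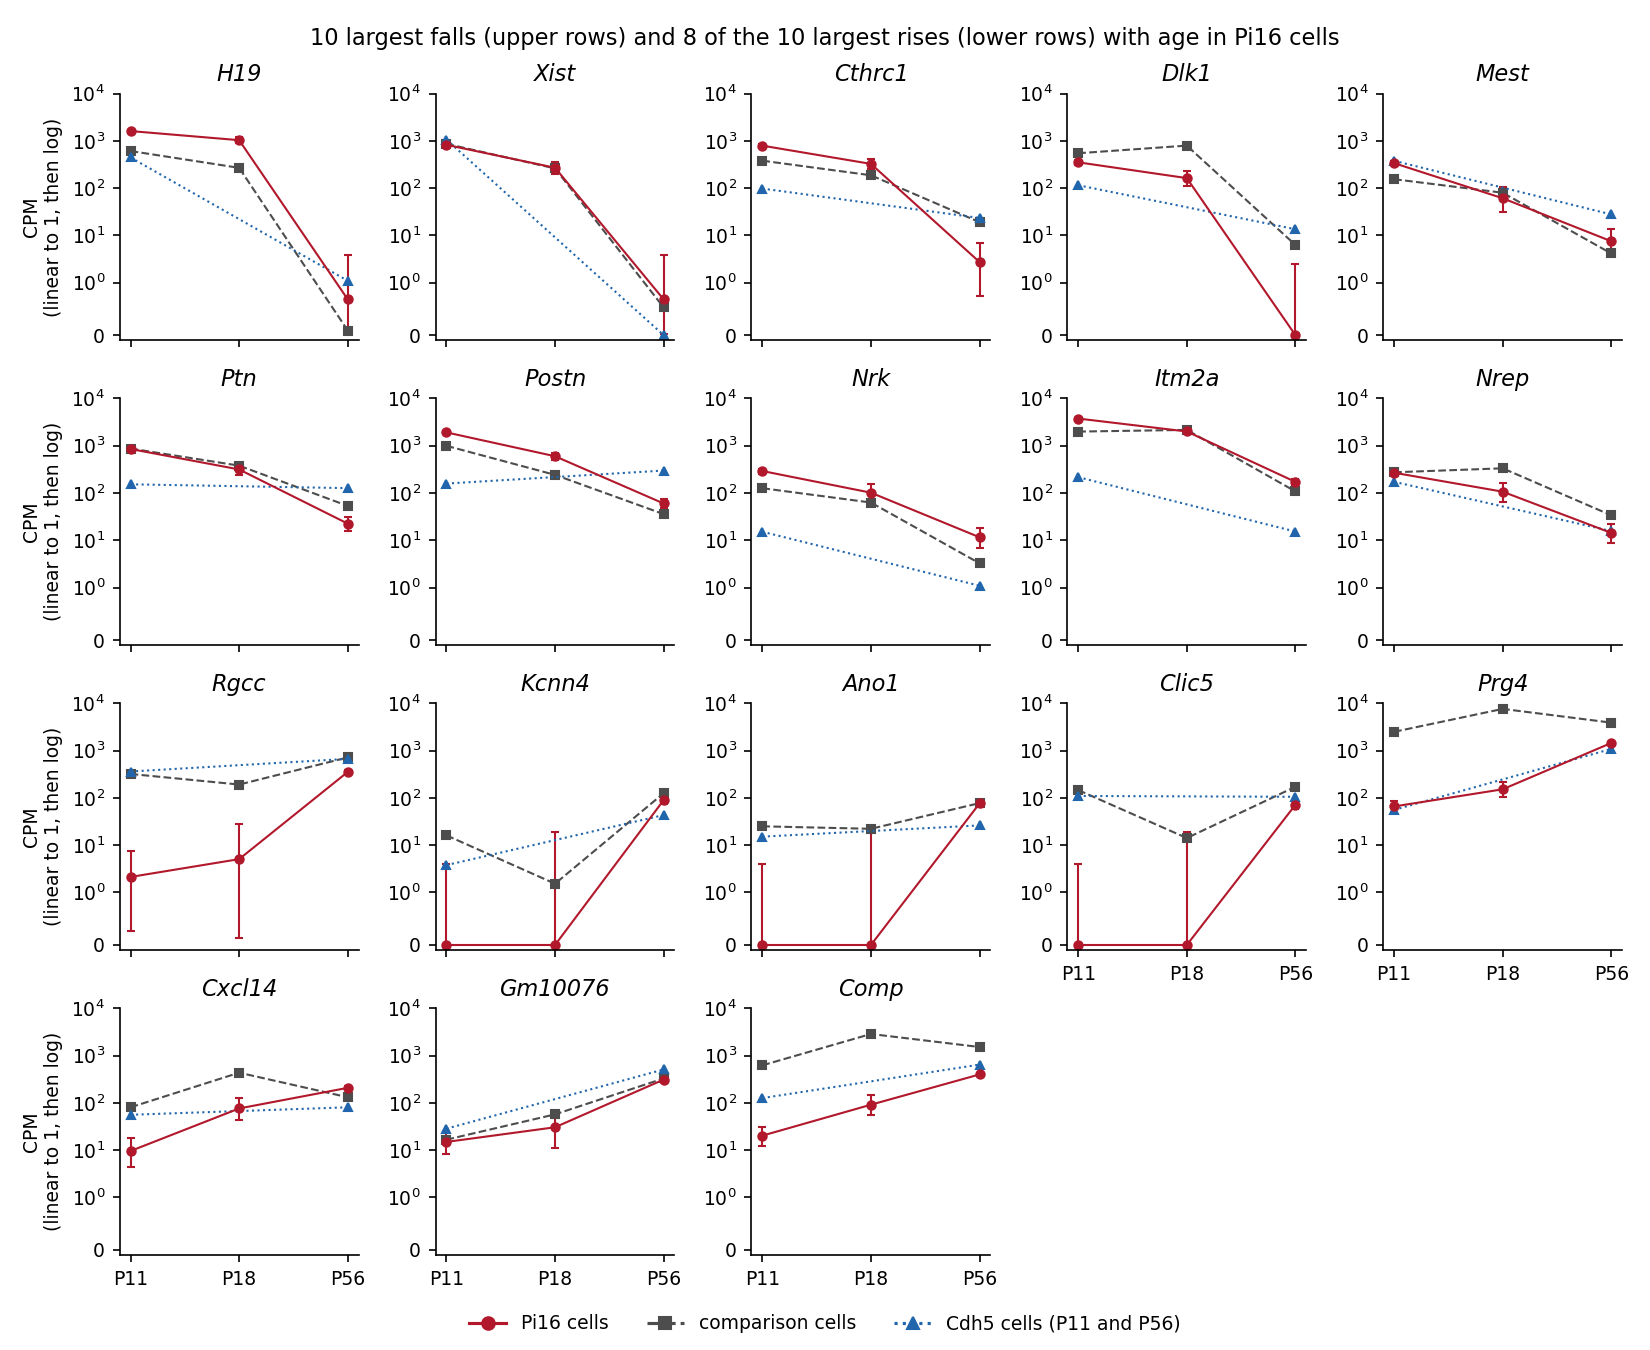
Level in CPM (y axes, linear to 1 and logarithmic above) at P11, P18 and P56 of the 10 genes with the largest falls (upper 2 rows) and 8 of the 10 with the largest rises (lower 2 rows) in the 261 Pi16 cells (red, with exact Poisson 95% intervals), in comparison cells (grey) and in cells with at least 2 UMIs of Cdh5 at P11 and P56 (blue). H19, Xist, Cthrc1 and Dlk1 were at or under 2.72 CPM in Pi16 cells at P56, and in Cdh5 cells at P56 Comp, Rgcc and Gm10076 lay above the level in Pi16 cells.

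For several of the 10 largest rises, endothelial cells of the same library held similar or larger amounts at P56. Prg4 went from 66.0 over 152 to 1452 CPM in Pi16 cells. At P56 it was at 1085 CPM in the 381 Cdh5 cells as well, and at 2000 UMIs per cell it was seen in 67.8% of Pi16 cells and 26.8% of Cdh5 cells (81.4% and 39.4% unthinned). Comp, a tendon and cartilage matrix protein, went from 20.2 over 91.3 to 398 CPM, under the 643 CPM of Cdh5 cells at P56. Rgcc, a cell-cycle regulator, went from 2.13 (2 UMIs) to 355 CPM and was at 670 CPM in Cdh5 cells. Gm10076, a predicted gene, went from 14.9 over 30.4 to 310 CPM and reached 507 CPM in Cdh5 cells. For Comp, Rgcc and Gm10076 the level in Pi16 cells was thus below that of another cell type of the library, and whether Pi16 cells express them was not tested.

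C3, Ccl11 and Cxcl14 stood above the Cdh5 cells at P56. C3 went from 55.3 over 96.3 to 366 CPM (63.3 in Cdh5 cells), Ccl11 from 96.8 over 487 to 499 CPM (49.5), and Cxcl14, a chemokine of connective tissue, from 9.58 over 76.1 to 208 CPM (80.5). The Cxcl14 counts at P56 were uneven, 80.0% of them in the 5 highest of 183 cells, while the 5 highest cells held 38.0% of the C3 counts and 44.2% of those of Ccl11. At P11 the 5 highest of 58 cells held 82.7% of the C3 and 70.3% of the Ccl11 counts. At P18 all 19 UMIs of C3 lay in 5 of 20 cells, as did all 96 of Ccl11. Of 16 chemokine, cytokine and complement genes tested, 4 rose, C3, Ccl11 and Cxcl14 among them, and 0 fell. The list's median log2 change was 0.80 in Pi16 cells and 1.89 in comparison cells, where 17 genes were tested. C3 rose more in comparison cells (log2 change 3.70, against 2.72 in Pi16 cells). Ccl11 and Cxcl14 rose less there (1.89 against 2.37, and 0.71 against 4.44). Kcnn4 (a potassium channel) and Ano1 (a chloride channel) were at 0 UMIs at P11 and P18 and reached 89.9 and 76.3 CPM at P56, in 27 and 25 of 183 cells. Clic5, an intracellular channel protein, reached 71.5 CPM at P56, under the 106 CPM of Cdh5 cells like Comp, Rgcc and Gm10076, with 78.1% of its counts in 5 cells. Gsn (gelsolin, an actin-severing protein) rose from 4946 over 12824 to 22486 CPM and Myoc (myocilin, a secreted glycoprotein) from 259 over 1288 to 2577 CPM, with 3054 and 229 CPM in Cdh5 cells. Both rose in comparison cells too, with log2 changes of 2.47 and 3.61, against 2.18 and 3.32 in Pi16 cells.

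Few wells of the Gli1CreERT;Ai14 plates held Pi16. The plates were shallower, with median counts per well between 2283 and 4876, and 15 of 647 filtered wells had a Pi16 count: 7 of 95 at P11, 4 of 94 at P14, 4 of 86 at P42, and 0 of the wells at P7, P18, P21 and P28. Only 3 wells had 2 or more, and 1 well, at P14, met the whole rule, so no test was run. Cd34 was found in 14 of the 15 Pi16 wells and in 203 of the 632 others, Ly6a in 11 of 15 and 264 of 632, and Dpp4 in 4 of 15 and 43 of 632. Tnmd was found in 11 of the 15 and in 395 of 632, and the rule leaves such wells out. The P14 well with the most Pi16 held 4 counts of it, with 9 of Cd34, 12 of Ly6a, 3 of Dpp4 and 0 of Tnmd among 9850.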

How the data were processed

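Droplet libraries were analysed from the counts of UMIs per gene and cell that the authors deposited, made with genome build mm10 per the submitters' processing notes and with software versions 3.1.0 (P11, P18) and 3.0.2 (P56) per the file headers; plates were analysed from deposited counts per well. Totals were 44104990, 53725468 and 40082499 UMIs at P11, P18 and P56 over all deposited barcodes. Members and gene lists were chosen with earlier results of these data known. Counts of cells were summed per library and arm and tested with edgeR 4.0.16 (R 4.3.3): TMM scaling, library as a term, a minimum of 10 counts in 3 or more of 6 sums for each gene, Benjamini-Hochberg adjustment at 0.05. Pi16, Ptprc, Cdh5, Tnmd and Pdgfra were left out of the test, and Ly6a where it chose cells. The sums share animals within a library, and p-values measure spread between libraries only. Per-cell levels are CPM of summed UMIs with exact Poisson intervals, and shares have Clopper-Pearson intervals, all at 95% and for counting error only. Shares of cells at equal depth were taken after thinning to 2000 UMIs. Scrublet's own threshold marked 1, 1 and 3 cells, which is too few to have worked, so doublets were not removed, and leaving out the highest scores was an alternative that took out 0, 1 and 4 Pi16 cells. Genes named in the text are the 3 markers, up to 4 per list and direction with the largest change past the test, the 12 largest rises and falls with a mean of at least 20 CPM and 1 direction in 3 of 3 libraries, and the 10 largest rises and falls with age, of which 2 are not reported here; the same rule was applied to the fits without immune-type cells. Cd55, Clec3b, Ly6c1, Ackr3, Igfbp6, Ltbp2, Emilin1, Gli1, Ebf2, Gsn, Myoc and Ddx3y were named after their values were seen. Gene positions are from GENCODE vM21 matched by gene identifier. Alternatives covered scaling, tool, filters, the Pi16 threshold, comparison cells, depth, doublets and each library left out. The edgeR step was tested on simulated data.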

Additional observations from a re-analysis of the deposited data

Results flagged for a closer look

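Pi16 was also counted in cells that the rule leaves out. At P18, 191 of the 2536 cells with Ptprc had 2 or more Pi16 UMIs, and at P11 6 of 436 did, in libraries sorted for cells without Cd45 staining. In the 191 cells S100a8 stood at 105157 CPM and Cd34 at 7.498 CPM, against 1633 CPM of Cd34 in the 20 fibroblast-type Pi16 cells of that library. The Ptprc cells were then split at 20 UMIs of S100a8, a value set after the data were seen, and thinned to 2000 UMIs per cell. At least 1 Pi16 UMI, in place of 2, was found in 19.5% of 935 P18 cells above that value (exact 95% interval 17.0% to 22.2%). Below it the share was 1.41% of 1486 (0.877% to 2.15%). At P11 all 6 of the cells with 2 or more Pi16 UMIs were among the 24 above that value. The share thus differed between cells of 1 library at equal depth, and Pi16 alone did not mark fibroblasts there.

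In the plates of Gli1CreERT;Ai14 mice, which entered no test, 15 wells had a Pi16 count, none of them with Ptprc or S100a8 counts.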

How the results depend on the processing

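The count of 5 genes between all Pi16 cells and comparison cells moved with most choices, while Dpp4, Cd34, Ly6a and the 5 genes kept their direction in each alternative in which they were tested. The count was 5 with size factors of the DESeq2 type, 9 with library totals, 138 with DESeq2 itself, 170 without a filter on low counts, 0 among 962 genes with at least 50 counts in each sum (103 at an unadjusted p under 0.05), 0 with Pi16 of at least 1 UMI (600 unadjusted), 231 with at least 4, 124 with Pdgfra in both arms, 18 with comparison cells chosen by Col1a1, 8 with depth-matched cells, 3 with the stricter cell filter, 3 without the highest doublet scores and 0 without the library term (526 unadjusted). Leaving out 1 library gave 0 (without P11, 379 unadjusted) to 267 (without P18). Without immune-type cells it was 190, and then 208 with DESeq2, 194 with DESeq2-type size factors, 147 with library totals, 124 with Pdgfra in both arms, 23 with depth-matched cells, 101 and 229 with Pi16 of at least 1 and 4, and 76, 286 and 633 without P11, P18 and P56. Against Ly6a-holding cells it was 410, and 165, 651 and 507 without P11, P18 and P56, the remaining pair of libraries leaving 1 residual degree of freedom. All alternatives without immune-type cells were added after seeing the data. The cause of these moves was not tested. The depth-matched sums hold as many comparison cells as Pi16 cells and so fewer counts.

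The share of Pi16 cells was 3.49%, 1.43% and 6.53% at P11, P18 and P56 with at least 1 Pi16 UMI, and 1.19%, 0.241% and 2.01% with at least 4. The stricter cell filter gave 4.52% at P11 and 4.43% at P56. Thinning first gave 0.900%, 0.296% and 1.71%. Leaving out immune-type cells gave 0.371% at P18. Among cells with Pdgfra or Pi16 it was 9.16%, 10.5% and 11.9%, and 9.21%, 7.07% and 11.9% without immune-type cells. The count of genes that changed with age was 235 at 2-fold and 202 with at least 30 UMIs in place of 81, and between 78 and 103 under the other 6 alternatives. Other scalings, tools and filters for the plates were not run, since with so few Pi16 wells no plate was tested. No paired analysis was possible because replicate numbers occur once per age; the library term already pairs the 2 sums of a library. The single genes followed through the alternatives were only Tek, Acan, Col2a1, 3110079O15Rik, Mmp3, Dpp4, Cd34 and Ly6a. Of their values, 197 kept both direction and side of the threshold, 25 lost the call, 11 gained it and 0 turned. Genes called only without immune-type cells varied when 1 library was left out of that fit. Igfbp4 passed in 1 of the 3 such fits, Mfap5, Opcml, C3, H19, Prg4 and Wnt5a in 2, and Gap43, Efhd1, Efemp1 and Eln in 3. At P18 only 20 fibroblast-type cells with 197205 UMIs carry each value, which limits what can be seen there to about 15.2 CPM.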

Other observations

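Pi16 cells that also held Tnmd were outside the rule. At P11 there were 19 with Tnmd but no Ptprc or Cdh5. They held Pi16 at 771 CPM, Cd34 at 1226, Ly6a at 2379, Dpp4 at 211 and Mfap5 at 4060 CPM, next to 1412, 2419, 181 and 4810 CPM for Cd34, Ly6a, Dpp4 and Mfap5 in the 58 Pi16 cells without Tnmd. Tendon cells of that library with Tnmd and no Pi16 held Cd34 at 129, Ly6a at 256 and Mfap5 at 224 CPM. Tnmd itself was at 226 CPM in the 19 cells and at 3647 CPM in the tendon cells, and Fmod at 262 and 5304 CPM. In the 28 cells with Pi16 and Tnmd at P56, Tnmd stood at 818 CPM, against 859 CPM in Tnmd cells without Pi16, Scx at 235 against 244 CPM, Thbs4 at 3864 against 5792 CPM and Fmod at 1160 against 6023 CPM. Mfap5 in these 28 cells was 2140 CPM, against 421 CPM in Tnmd cells without Pi16. Whether such droplets hold 1 cell or more was not tested.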
